A study of Mus musculus with 8 samples.

Results

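The regions described here are the 662 lines for mouse chromosome 7 in the authors' deposited lists of differential 5-hydroxymethylcytosine (5hmC) regions, out of 12594 lines in all. Of the 662, 242 (36.6%) came from the list of lower signal in Ogt iKO cells, against 31.4% of the regions of the other autosomes, and 420 came from the list of higher signal. They were chosen by chromosome, because chromosome 7 had the lowest share of higher regions among the 19 autosomes, so that share is given as a description and was not tested. The study used mouse embryonic stem cells of genotype Ogt fl/fl, in which the gene for O-GlcNAc transferase is floxed. In the Ogt iKO group the cells were kept with 4-OHT (4-hydroxytamoxifen) for 6 days and sorted for the YFP reporter. The control group has the same floxed genotype and was cultured without 4-OHT. Each of these gave 2 CMS-IP libraries and 2 input libraries, made from viable sorted cells after growth on mitomycin C-treated feeder fibroblasts. CMS-IP recovers fragments that carry bisulfite-converted 5hmC with an antibody. The driver of the recombinase, the sex of the line and whether replicates were separate cultures are not given in the sources used here.

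TET enzymes oxidise 5-methylcytosine to 5hmC, a step on the way to removal of DNA methylation. OGT binds TET proteins and attaches O-GlcNAc to many nuclear proteins. In stem cells 5hmC is known from gene bodies, enhancers and the surroundings of promoters. Mouse chromosome 7 is known for 3 groups of imprinted genes, around Peg3, around Snrpn and Ube3a, and between H19 and Kcnq1. It also carries large tandem families of genes, among them olfactory and vomeronasal receptors, zinc finger genes, kallikreins and secretoglobins.

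The promoters that a chromosome 7 region touched are shown first, because they are the members for which sequence was at hand. RefSeq (GRCm38.p6) promoter windows of 300 bases, from 250 before to 50 after a gene start, were listed for 2316 genes of the chromosome, in 2790 windows. Regions touched 10 of these windows in 9 genes, 3 genes by a lower and 6 by a higher region. This is 0.358% of the windows, against 0.538% (154 of 28606) on 17 other autosomes with listed windows. In 3 windows, those of Trpm1, E030018B13Rik and Olfr544, the region covered every base. Ptpn5, Insc and Klk6 were added after their values were seen, to show all promoters touched by lower regions and a partly covered one touched by a higher region. Trpm1 encodes the cation channel of retinal ON bipolar cells, Ptpn5 a neuronal tyrosine phosphatase, Insc a spindle orientation protein, Klk6 a secreted serine protease and Olfr544 an olfactory receptor. Capitals mark CG dinucleotides, the usual site of cytosine methylation; CG reads the same on both strands. Each sequence is written 5′ to 3′ on the strand of the gene.
Trpm1: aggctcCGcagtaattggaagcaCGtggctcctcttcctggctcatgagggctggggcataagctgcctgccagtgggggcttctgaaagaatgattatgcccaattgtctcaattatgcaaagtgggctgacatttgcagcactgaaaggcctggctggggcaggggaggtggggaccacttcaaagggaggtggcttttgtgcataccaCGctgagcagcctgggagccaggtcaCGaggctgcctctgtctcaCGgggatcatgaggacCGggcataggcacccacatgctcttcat
Ptpn5: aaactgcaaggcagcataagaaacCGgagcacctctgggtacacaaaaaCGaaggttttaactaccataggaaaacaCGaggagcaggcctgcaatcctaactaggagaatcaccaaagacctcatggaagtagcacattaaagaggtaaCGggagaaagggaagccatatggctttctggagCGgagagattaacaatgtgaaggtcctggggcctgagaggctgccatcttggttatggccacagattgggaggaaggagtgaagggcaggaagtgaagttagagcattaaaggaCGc
Insc: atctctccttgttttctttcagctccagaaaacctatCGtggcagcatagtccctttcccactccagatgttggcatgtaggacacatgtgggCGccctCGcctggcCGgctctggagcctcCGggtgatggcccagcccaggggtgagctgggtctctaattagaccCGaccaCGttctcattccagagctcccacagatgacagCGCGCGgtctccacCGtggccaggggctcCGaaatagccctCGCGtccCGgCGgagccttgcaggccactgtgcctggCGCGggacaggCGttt
E030018B13Rik: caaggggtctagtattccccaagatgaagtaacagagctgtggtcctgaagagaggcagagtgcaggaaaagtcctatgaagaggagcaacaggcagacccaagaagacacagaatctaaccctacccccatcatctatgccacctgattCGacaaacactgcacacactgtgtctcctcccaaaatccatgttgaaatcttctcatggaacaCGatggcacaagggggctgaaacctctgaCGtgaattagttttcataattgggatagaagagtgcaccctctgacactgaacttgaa
Klk6: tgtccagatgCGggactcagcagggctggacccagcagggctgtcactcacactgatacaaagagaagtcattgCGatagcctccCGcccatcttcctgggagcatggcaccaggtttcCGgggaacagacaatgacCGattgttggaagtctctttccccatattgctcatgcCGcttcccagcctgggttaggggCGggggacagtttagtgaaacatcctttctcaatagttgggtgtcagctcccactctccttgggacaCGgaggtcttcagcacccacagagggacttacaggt
Olfr544: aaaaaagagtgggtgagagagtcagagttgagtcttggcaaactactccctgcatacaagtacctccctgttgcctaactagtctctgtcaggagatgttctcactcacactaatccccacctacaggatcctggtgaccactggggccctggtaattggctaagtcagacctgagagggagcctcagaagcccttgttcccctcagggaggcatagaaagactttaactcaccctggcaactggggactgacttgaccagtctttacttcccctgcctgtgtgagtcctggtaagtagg

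The window of Trpm1 (chr7:64185209-64185508, plus strand) lay within a lower region of 859 bp and held 6 CG. It belongs to a listed start inside the gene, whose span begins at 64153835. Ptpn5 (chr7:47133635-47133934, minus strand) shared 273 bases with a lower region of 434 bp and also held 6 CG. Insc (chr7:114745516-114745815, plus strand) held the most CG of the printed windows, 19, a count inside the interquartile range given below. Its lower region of 213 bp covered only 97 bases at the upstream side, and most of these CG lay outside that part. Its listed start also lies inside the gene, whose span begins at 114743688. Among higher regions, the window of E030018B13Rik (chr7:63916607-63916906, plus strand) held 3 CG, that of Klk6 (chr7:43824294-43824593, plus strand) 8 and that of Olfr544 (chr7:102488258-102488557, minus strand) 0. Over 31396 autosomal promoter windows the median was 7 CG, with an interquartile range of 3 to 21, and 94.8% held at least 1. Of the printed windows, 4 lay below that median, and those of Klk6 and Insc lay above it.

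Over its whole span, chromosome 7 differed from the other autosomes more in the density of its higher than of its lower regions; outside gene-family segments its density of lower regions was above theirs and that of higher regions below, with intervals that overlapped. Lower regions made up 36.6% of its regions (242 of 662, 95% Wilson interval 33.0 to 40.3%), against 31.4% of the regions of the other 18 autosomes (3719 of 11858, 30.5 to 32.2%). The lists give no read counts, so these intervals cover counting error only and treat regions as independent. Per Mb of annotated span, chromosome 7 held 1.70 lower regions (exact Poisson 95% interval 1.49 to 1.93) and the other autosomes 1.65 (1.59 to 1.70). For higher regions the densities were 2.95 per Mb (2.68 to 3.25) on chromosome 7 and 3.602 per Mb (3.52 to 3.68) on the others. At the density of the other autosomes, the chromosome would hold 234 lower and 512 higher regions, so it had 7.94 more lower and 92.2 fewer higher regions than that. Gene-family segments, described further on, were also left out on all autosomes. Leaving them out removed 23.5% of the span of chromosome 7 but 2.23% of that of the others. Several of the listed families had segments on chromosome 7 only, so the parts compared are unlike. Chromosome 7 then had 31.5 more lower regions than the 180.5 so expected and 38.1 fewer higher regions than the 396 so expected. Relative to all its 662 regions, the surplus of lower lines was 34.4 above the 208 given by the share on the other autosomes. Counted in clusters, with gaps up to 100 kb bridged separately for lower and for higher lines, the excess in lower share fell from 5.19 to 3.02 percentage points.

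**Figure D1:**
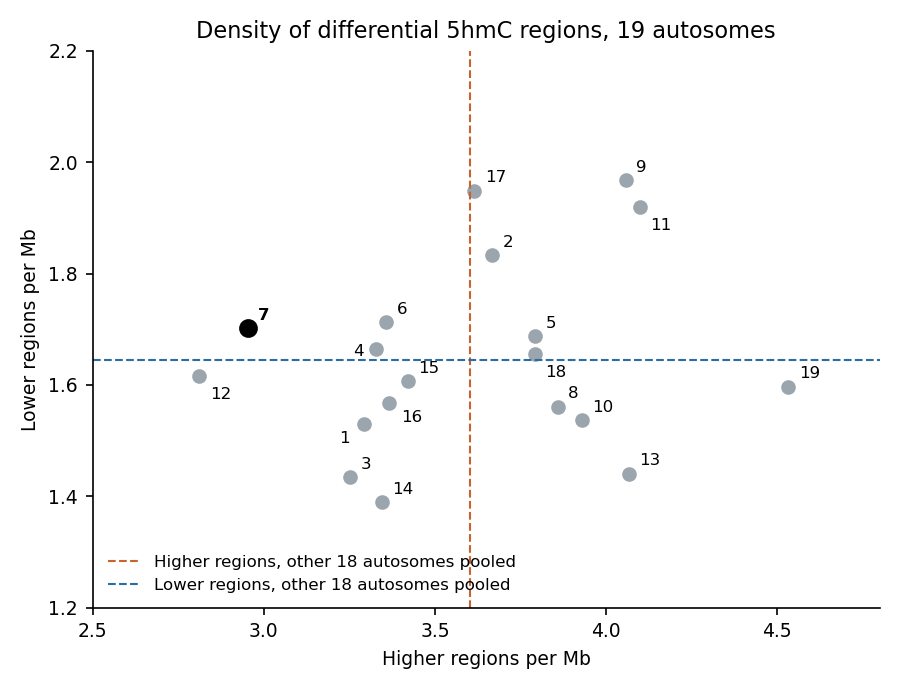
Higher regions per Mb (horizontal axis) against lower regions per Mb (vertical axis), 1 point per autosome with its number; both axes start above 0, and the dashed lines are the pooled densities of the other 18 autosomes. Chromosome 7, in black at 2.95 and 1.70, lies left of the vertical line and close to the horizontal one.

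Chromosome 12 was the nearest neighbour in this order. Its lower share was 36.5% (189 of 518), just below that of chromosome 7, and it was the only autosome with a lower density of higher regions, 2.81 per Mb. Chromosome 17 came next with 35.0% lower regions, but had 3.62 higher and 1.95 lower regions per Mb, so its share went with more lower regions. Chromosome 7 ranked 6 of 19 for lower regions per Mb. It was also the most gene-dense autosome, with 14.2 protein-coding genes per Mb against 8.20 on the others. Chromosome 12, with nearly the same lower share, was the least gene-dense of the 19, at 5.79 per Mb.

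The surplus was then located in 30 windows of 5 Mb, each region placed by its midpoint. The expected number of lower regions in a window is its number of regions times the lower share of the other autosomes. Observed lower regions exceeded it in 18 windows, by 54.7 regions in sum, and were below it in 12, with a sum of -20.3. The largest surplus lay at 40 to 45 Mb, where 16 of 27 regions were lower (59.3%, Wilson interval 40.7 to 75.5%), 7.53 above expectation. It was followed by 140 to 145 Mb with 18 of 36 lower (surplus 6.71), 125 to 130 Mb with 20 of 44 (6.20), 35 to 40 Mb with 12 of 24 (4.47) and 80 to 85 Mb with 12 of 25 (4.16). Together these 5 windows held a surplus of 29.1, and without the first 3 of them that of the chromosome was 13.9, or 2.51 percentage points above the other autosomes in place of 5.19. Of the 26 chromosome 7 windows with at least 10 regions, 5 (19.2%) had lower regions in 50% or more. On the other autosomes this was so in 32 of 416 such windows (7.69%), and 5 of the 416 reached the share of the window at 40 to 45 Mb.

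**Figure D2:**
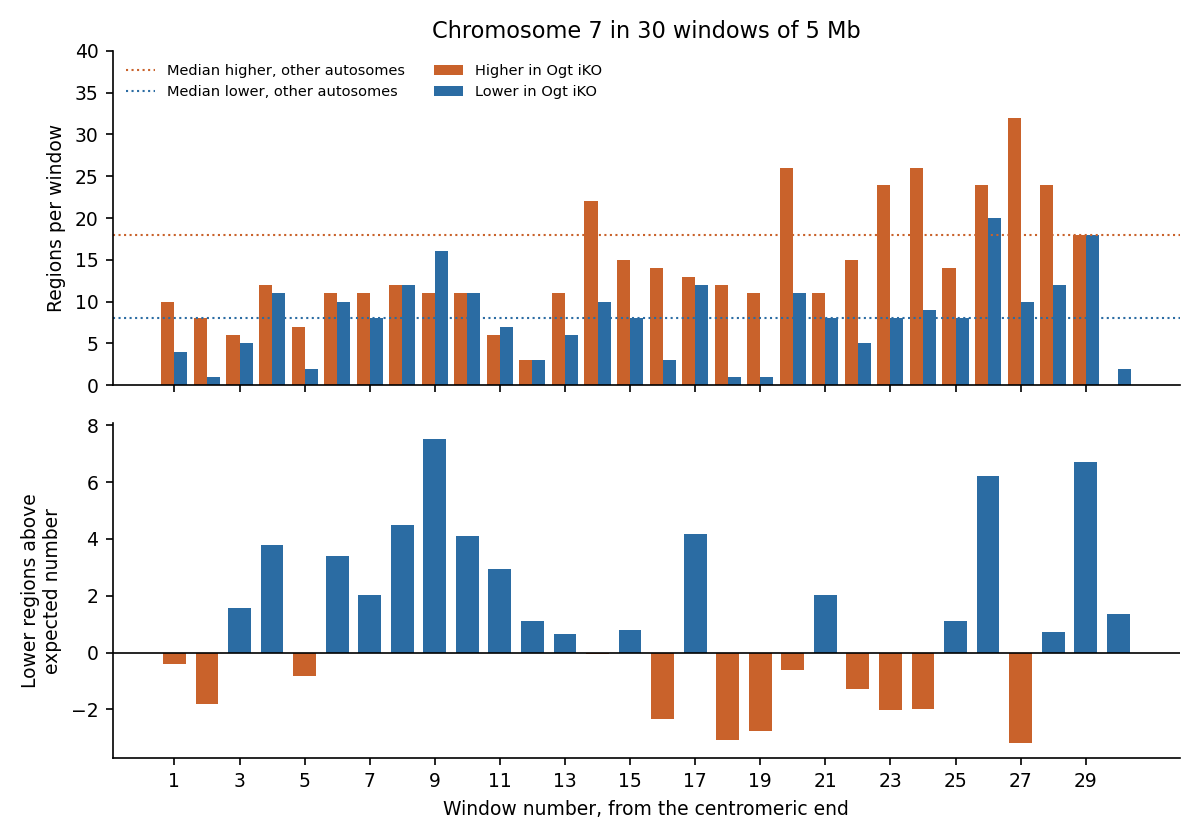
Upper panel, number of higher and lower regions in each 5 Mb window of chromosome 7, numbered from the centromeric end, with dotted lines at the medians of complete windows of the other autosomes (18 higher, 8 lower). Lower panel, lower regions above (blue) or below (orange) the expected number; windows 6 to 13 are all above 0, and window 9, at 40 to 45 Mb, is the highest at 7.53.

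The windows from 25 to 65 Mb formed an unbroken run of 8 with a surplus. They held 73 lower and 76 higher regions, a lower share of 49.0% (41.1 to 56.9%), and 26.3 of the surplus of 34.4. Their density of lower regions was 1.83 per Mb (Poisson interval 1.43 to 2.29), near that of the rest of the chromosome at 1.65 (1.41 to 1.92). Their density of higher regions was 1.90 per Mb (1.497 to 2.38), against 3.37 (3.02 to 3.74) in the rest. The stretch thus stood apart in its few higher regions, not in its number of lower ones. Outside it, 169 of 513 regions were lower, 32.9% (29.0 to 37.1%), a surplus of 8.11. The stretch was delimited by the sign of the surplus, so these values describe it and test nothing. On the other 18 autosomes the longest such runs had 2 to 8 windows, with 1 autosome, chromosome 2, also reaching 8 (36.8% lower over 145 to 185 Mb). Shorter runs on chromosome 4 (130 to 155 Mb, 48.3% lower) and chromosome 10 (50 to 65 Mb, 50.0%) had a similar lower share. In the rest it ranged from 34.2% (chromosome 17) to 44.3% (chromosome 6). The runs of chromosomes 12 and 13 had fewer higher regions per Mb (1.68 and 1.40) than the 1.90 here. The others had 2.13 (chromosome 10) to 3.75 (chromosome 5).

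At 40 to 45 Mb the 16 lower regions included some among the kallikreins, others in genes beyond them and 6 outside protein-coding genes. Lower regions lay in Klk13 (476 bp, 43714120 to 43714595) and Klk4 (466 bp, 43883019 to 43883484), which encode secreted serine proteases, and, at lower coordinates, in the zinc finger gene Zfp977 (877 bp) and in 4931406B18Rik (449 bp). Klk6, between the kallikreins named, carried a higher region of 523 bp at its promoter. Starting in the last part of the kallikrein segment, 6 lower regions followed each other with no higher one from 44204897 to 44758138. Those in genes began with Shank1 (a postsynaptic scaffold, 727 bp), 1700008O03Rik (403 bp) and Gm39002 (207 bp). They ended with Myh14 (a nonmuscle myosin heavy chain, 877 bp) and Vrk3 (594 bp). After a higher region of 892 bp, a further lower one of 1164 bp lay in Akt1s1, which encodes an mTORC1 subunit. In this window 10 protein-coding genes held a lower and 4 a higher region, the latter being Klk6, Siglecf, Vmn2r63 and Vsig10l. Outside protein-coding genes, 7 higher regions lay beside the 6 lower ones. A run of 6 lower regions is the longest on chromosome 7, and the longest on the other autosomes ranged from 3 to 8. Higher regions formed runs of up to 13 on chromosome 7, where the longest run on each other autosome had 13 to 25.

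From 144762872 to 145324333, at the end of the listed part of the chromosome, lay the other run of 6 lower regions. It included 3 lower regions inside Ccnd1, the gene for cyclin D1, which drives entry into the cell cycle. They spanned 468 bp (144932405 to 144932872), 456 bp (144934085 to 144934540) and 664 bp (144935679 to 144936342). Ccnd1 is only 9.90 kb long and held no higher region. In the same window Shank2 held a lower region of 1365 bp and a higher one of 321 bp, Fadd (the death receptor adaptor) a lower one of 947 bp and a higher one of 213 bp, and Deaf1, a transcription factor gene, a higher one of 1414 bp and a lower one of 418 bp. In each of these 3 genes both directions thus occurred. Caly, Cd163l1 and Mob2 held 1 lower region each, of 200, 274 and 881 bp; the region in Deaf1 of 418 bp also fell within 1 kb of Tmem80.

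At 125 to 130 Mb, 14 protein-coding genes held a lower region and 7 a higher one. Outside protein-coding genes lay 6 lower and 14 higher regions, and the whole window held 20 lower and 24 higher. A single lower region of 595 bp counted for both E430018J23Rik and Zfp764. Lower regions lay in Mvp (major vault protein, 1225 bp), Inpp5f (898 bp), Prr14 (848 bp) and at 2 places in Rgs10, a regulator of G protein signalling (227 and 579 bp). One of 269 bp lay at an end of Mapk3, which encodes the kinase ERK1, and one of 200 bp in Srcap, a chromatin remodeller that also held 3 higher regions. The remaining genes with a lower region were AI467606, D430042O09Rik, E430018J23Rik, Itgad, Prss36, Sbk1, Tgfb1i1 and Zfp764. At 35 to 40 Mb, by contrast, 8 of the 12 lower and 11 of the 12 higher regions lay outside protein-coding genes. The genes with a lower one were Gpatch1, Dpy19l3, Gm36722 and Tshz3, a zinc finger homeobox gene. At 80 to 85 Mb the 8 genes were Blm (a DNA helicase), Crtc3 (a CREB coactivator), Fah (tyrosine breakdown), Il16, Prc1, Rccd1, Sh3gl3 and Zfp592, with the widest lower regions in Zfp592 (1506 bp) and Crtc3 (1405 bp).

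The windows furthest below expectation all lay past 85 Mb. At 130 to 135 Mb 10 of 42 regions were lower (23.8%), at 85 to 90 Mb 1 of 13 (7.69%) and at 90 to 95 Mb 1 of 12 (8.33%). Dock1, an activator of the GTPase RAC, held 5 higher regions of 383 to 1649 bp and no lower one, and the metalloprotease gene Adam12 held 3 higher. Dlg2, which encodes a postsynaptic scaffold, held 5 higher regions over its 1973 kb. The single lower regions at 85 to 90 and 90 to 95 Mb lay in Tmem135, beside 4 higher regions, and in Rab30, beside 3. In the first of these windows Me3 also held 2 higher regions, and in the second Ankrd42 held 1. From 89335897 to 92778887, 13 higher regions followed each other with no lower one, from Tmem135 through Me3, Dlg2 and Ankrd42 to Rab30. A run of 12 higher regions (133506350 to 134983077) took in Adam12, D7Ertd443e and Dock1, and a run of 11 (110629289 to 112657443) took in Adm, Mrvi1, Ctr9, Galnt18, Usp47, Mical2 and Parva. At 130 to 135 Mb lower regions lay in Tacc2 (2 lower, 0 higher), Ate1 (2 and 1), Chst15 (2 and 1) and Btbd16.

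Gene families were set apart by symbol, as segments of at least 5 genes of a family with no gap over 500 kb. Segments of 13 of the 15 families listed covered 33.4 Mb, 23.5% of the chromosome, against 2.23% of the span of the other autosomes. Kallikreins, Ceacam and Psg genes, Mas-related receptors, serum amyloid A, beta globins, secretoglobins and oocyte homeobox genes had segments on chromosome 7 only. Families outside the list were not counted, so these percentages, and what lies outside the segments, depend on the list. The chromosome 7 segments held 30 lower and 62 higher regions, or 16 and 41 when gaps up to 200 kb were allowed. Their density was low in both directions, at 0.897 lower (0.605 to 1.28) and 1.85 higher regions per Mb (1.42 to 2.38), and close to that of such segments elsewhere, 1.07 (0.804 to 1.40) and 1.88 (1.52 to 2.30). Their lower share was 32.6% (23.9 to 42.7%), a surplus of only 1.15 regions. The surplus of lower lines therefore lay almost wholly outside them, 33.2 regions. There, chromosome 7 held 1.95 lower (1.70 to 2.23) and 3.29 higher regions per Mb (2.96 to 3.65), against 1.66 (1.61 to 1.71) and 3.64 (3.56 to 3.72) outside the segments of the other autosomes. Within the stretch from 25 to 65 Mb, sequence outside the segments had 1.96 lower and 1.86 higher regions per Mb. The rest of the chromosome outside the segments had 1.95 lower and 3.84 higher regions per Mb, so the densities of lower regions there were alike and those of higher regions were not.

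**Figure D3:**
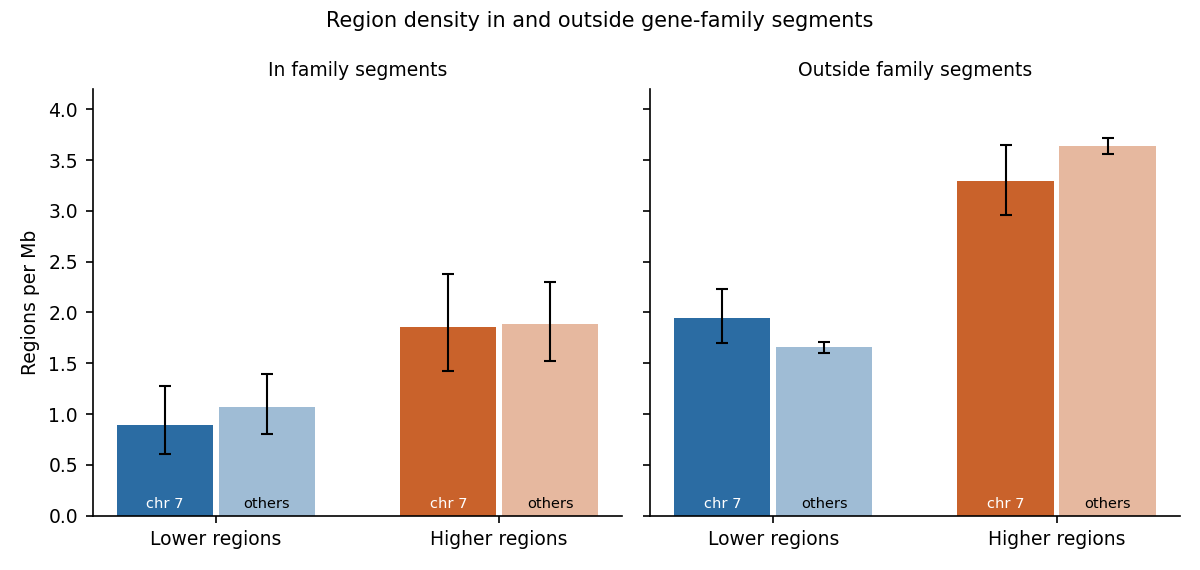
Regions per Mb inside (left) and outside (right) gene-family segments, for lower (blue) and higher (orange) regions on chromosome 7 (dark) and on the other 18 autosomes (pale); bars start at 0 and whiskers are exact Poisson 95% intervals. Inside the segments the whiskers of chromosome 7 and the others overlap for both directions; outside, chromosome 7 has 1.95 lower regions per Mb and the others 1.66.

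The families differed among themselves. Olfactory receptor segments held 3 lower and 7 higher regions in 5.56 Mb, and vomeronasal receptor segments 6 and 17 in 12.6 Mb. Segments of Mas-related receptors, oocyte homeobox genes, tripartite motif genes and beta globins held 0 regions of either list. Secretoglobins, with 48 genes over 2.84 Mb, held 1 lower and 1 higher region, and the cytochrome P450 2 segment 0 and 2. Zinc finger segments held the most regions of any family, with 18 lower and 38 higher regions in 6.97 Mb, or 2.58 and 5.45 per Mb, where those of the other autosomes had 1.99 and 2.94 per Mb. Lower regions outnumbered higher ones in the kallikrein segment (3 and 2) and in the Ceacam and Psg segment (4 and 3), both on few regions. Serum amyloid A and keratin-associated segments held 1 higher region each. Segments of different families can overlap, so a region can count in more than 1.

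Imprinted segments contributed 1.04 regions of surplus, since they held 7 lower and 12 higher regions in 6.44 Mb (36.8% lower, Wilson interval 19.1 to 59.0%). The genes listed were found in all but 1 case, 33 of 34, and each segment took in 100 kb on both sides; with 500 kb the counts were 16 and 27. In the Peg3 group all 4 regions were higher, and they also count in a zinc finger segment described above. A region of 201 bp lay in Peg3 (6717683 to 6717883), a zinc finger gene expressed from the paternal allele, and 3 of 850, 215 and 599 bp lay in Usp29. In the 4.01 Mb around Snrpn and Ube3a only 3 regions were listed. They were a higher one of 541 bp in Atp10a, a lower one of 231 bp in Snrpn and its overlapping noncoding gene Snhg14 (60322245 to 60322475), and a higher one of 200 bp between genes. The segment from H19 to Osbpl5 held 5 lower and 5 higher regions in 1.38 Mb. Both regions in Kcnq1, a potassium channel gene, were lower, at 143154782 to 143155459 (678 bp) and 143302807 to 143303200 (394 bp). Cars, which encodes cysteinyl-tRNA synthetase, held a lower region of 1789 bp (143586958 to 143588746), and Nap1l4 a higher one of 1021 bp at its end. Tnfrsf26 held 1 higher region at an end. Within the flank of the segment, Dhcr7, the last enzyme of cholesterol synthesis, held 1 lower (1187 bp) and 1 higher region (251 bp), and Nadsyn1 held 1 higher. A lower region of 200 bp lay in the gene model Gm33148 and a higher one of 329 bp between genes. No region midpoint of either list fell within 1 kb of H19, Igf2, Cdkn1c or Phlda2. Inpp5f held its 1 lower region, and the only region near Ampd3 was a higher one of 763 bp in Mrvi1. Around 30 imprinted genes of other autosomes, 14 lower and 39 higher regions lay in 5.19 Mb (26.4% lower, 16.4 to 39.6%). There, each gene was taken singly with 100 kb on both sides, whereas chromosome 7 segments spanned whole groups. Pooled, the chromosome 7 segments had fewer regions of both kinds per Mb (1.09 and 1.86 against 2.70 and 7.52). The segments differed, with 0.249 lower and 0.499 higher per Mb around Snrpn and Ube3a. The Peg3 group had 0 lower and 7.62 higher per Mb, and the segment from H19 to Osbpl5 3.62 of each.

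Of 2025 protein-coding genes on the chromosome, 263 held at least 1 region midpoint within their span extended by 1 kb. Lower regions alone were found in 89, higher alone in 139 and both in 35. A lower region was present in 6.12% of the genes and a higher one in 8.59%, against 9.20% (1705) and 3150 of the 18533 genes of the other autosomes. In 29 genes with 3 or more regions, higher regions were more numerous in 22 and lower ones in 7. Those 7 were Fam189a1 (5 lower and 3 higher), Ccnd1 (3 and 0), Nell1, Insc, Ate1, Chst15 and Ptpre (2 and 1 each). Fam189a1 crosses the end of the stretch from 25 to 65 Mb, and its lower regions of 258 to 653 bp lay on both sides of a higher one of 745 bp. Further genes with 2 lower regions and no higher one were Hs3st4, Rgs10, Tacc2 and Kcnq1, while Sbf2 (2 and 4) and Xylt1 (2 and 3) held more higher ones. Tenm4, a teneurin adhesion gene of 739.9 kb, held the most regions, 3 lower of 200 to 765 bp and 7 higher of 270 to 4436 bp. Genes with 3 or more higher and no lower regions were Dlg2, Dock1, Akap13 (4 higher), Usp29, Igf1r, Uvrag, Fchsd2, Galnt18, Sox6 and Adam12. Mixed genes were Mef2a, Tmem135, Rab30 and Srcap, which each had 1 lower and at least 3 higher, and Garre1, Nav2, Blm, Stk33 and Tead1 with 1 and 2. Genes with only lower regions had a median length of 32.1 kb and those with only higher regions 53.0 kb.

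The lower share was highest near gene ends. Lower regions made up 45.2% of the 62 regions within 1 kb of a gene end (Wilson interval 33.4 to 57.5%), 35.1% of the 382 inside genes and 36.7% of the 218 between genes. On the other autosomes these shares were 37.4, 29.2 and 33.4%, so the chromosome 7 share was above that of the others in each of the 3 classes. The median distance from a region to the nearest listed gene start was 18230 bp for lower and 22646 bp for higher regions of chromosome 7, and 24245 and 29952 bp on the other autosomes with listed starts.

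By their medians, lower regions of chromosome 7 were wider than those of the other autosomes pooled, and higher regions narrower. The median width was 365.5 bp for lower regions (interquartile range 222 to 717 bp) and 491 bp for higher regions (256 to 967 bp). On the other autosomes pooled, the medians were 318 bp (222 to 614 bp) and 544 bp (266 to 955 bp). Single autosomes came close, with a lower median of 361 bp on chromosome 5 and a higher median of 489 bp on chromosome 13. Chromosome 12, nearest in lower share, had medians of 352 bp for lower and 580 bp for higher regions. Widths come from the same calls as the direction and were not tested. The difference in lower share was seen mainly among wide regions: from 500 to 999 bp, 34.1% were lower (56 of 164) against 24.8% elsewhere, and at 1000 bp or more 24.4% (32 of 131) against 16.8%. From 250 to 499 bp the shares were 39.7 and 39.3%, and from 200 to 249 bp they were 44.4 and 40.7%. The lower share was above that of the other autosomes by 8.27 points in the wider part of the regions, split at the median width, and by 1.75 points in the narrower part.

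**Figure D4:**
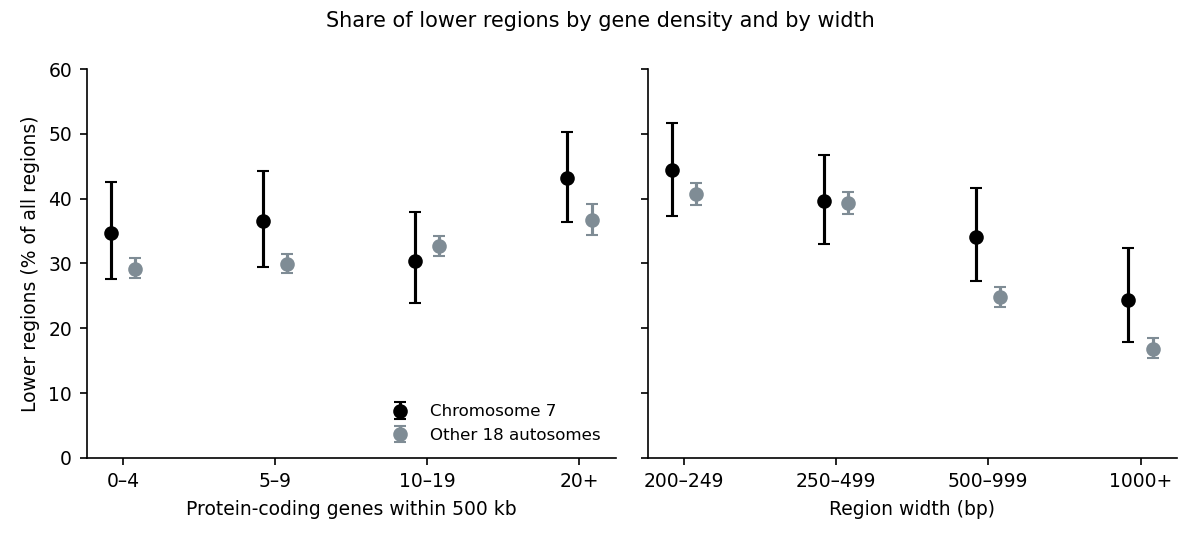
Lower regions as a percentage of all regions on chromosome 7 (black) and on the other 18 autosomes (grey), by the number of protein-coding genes within 500 kb (left) and by region width (right), with 95% Wilson intervals. Chromosome 7 is above the others in 3 of 4 gene-number groups and in all 4 width groups, by the most at 500 to 999 bp (34.1 against 24.8%).

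The lower share on chromosome 7 was highest among regions with the most genes around them, but did not rise steadily with gene number. Regions with 20 or more protein-coding genes within 500 kb made up 29.0% of the chromosome 7 regions and 13.2% of the others, and their lower shares were 43.2% (83 of 192) and 36.7%. With 0 to 4 genes nearby the shares were 34.7 and 29.2%, with 5 to 9 genes 36.5 and 29.9%, and with 10 to 19 genes 30.4 and 32.7%. When the expected number was taken from the other autosomes within the same gene-number groups, the surplus was 27.6 regions in place of 34.4.

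The widest lower region, 2512 bp at 19620028 to 19622539, lay in Relb, which encodes an NF-kappaB subunit. It was followed by 1789 bp in Cars, 1732 bp at an end of the zinc finger gene Zfp568 (30026668 to 30028399), 1726 bp in Hnrnpul1 (25751059 to 25752784), an RNA-binding protein gene, and 1598 bp in Arrb1 (99535933 to 99537530), which encodes a beta-arrestin. The widest higher region, 4749 bp at 63914670 to 63919418, covered the E030018B13Rik promoter shown above and was assigned to that gene and to Klf13, a transcription factor gene. The next were 4436 bp in Tenm4 (96879834 to 96884269), 4031 bp between genes (37310374 to 37314404), 3041 bp in Nsmce1 (125476097 to 125479137) and 3004 bp in Gsg1l (126050686 to 126053689), which encodes an auxiliary subunit of AMPA receptors. Of these 5, the regions at 63914670 and 37310374 lay in the stretch from 25 to 65 Mb, among its 76 higher regions.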

How the data were processed

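CMS-IP and input libraries of Ogt iKO and control mouse embryonic stem cells (8 samples, 4 groups of 2 by title) underlie 2 lists that the authors deposited. Each line is a chromosome, start and end (coordinates only; no signal, fold or p), named for direction and mm10 in the lists' names. Bismark and MACS2 are named, without role or version, in the submitters' processing notes; the differential test, its threshold and the use of inputs, spike-ins and replicates are not given in the sources used here. The lists' spelling of the knockout was read as Ogt iKO. No depth or replicate error can be computed, no region was narrower than 200 bp, and no test was made.

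Coordinates are given 1-based, after adding 1 to each BED start. RefSeq gene spans (GRCm38.p6, the assembly of mm10) were used for 49595 of 49997 genes, without 402 on other sequences; exons, introns and UTRs were not separated. Density used the span from the first to the last gene or region. The members, lists and rules were chosen with earlier results of these data known. Named items are the 5 widest regions per direction, genes with at least 3 regions or 2 lower ones, genes with a lower region in the 5 windows of largest surplus and the 3 of largest deficit, imprinted genes with a region, and promoters covered in full; other genes with a higher region were named after their values were seen. Regions were assigned by midpoint. The window surplus was checked on simulated direction labels, and the gene classes and family segments against a direct search. Other procedures were not checked in this way. Python 3.11.15, numpy 2.4.6, pandas 2.3.3, scipy 1.17.1 and matplotlib 3.10.9 were used.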

Additional observations from a re-analysis of the deposited data

How the results depend on the processing

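Across 11 results and 41 recomputed values, 35 stayed within the counting interval of the share, within 1.5 times a count or width or in an overlapping window, 6 moved and none reversed. The difference of 5.19 percentage points in lower share kept its direction in 13 settings but not its size: it was 1.58 without the stretch from 25 to 65 Mb, outside the counting interval, 1.75 among regions below the median width and 8.27 among those at or above it, 2.51 without the 3 windows of largest surplus, and 3.02 when regions of a list within 100 kb were merged. Leaving out the stretch, using gene-number or width groups as the baseline and leaving out chromosome 12 were chosen after seeing the data. With a gap of 200 kb in place of 500 kb, family segments held 16 lower and 41 higher regions in place of 30 and 62, since fewer genes then form segments. With a flank of 500 kb, imprinted segments held 16 lower and 27 higher regions in place of 7 and 12, since more sequence is counted. The mean width of higher regions was 738 bp against a median of 491 bp. The largest surplus began at 40 to 44 Mb for each window size and shift tried. No paired analysis was possible because the lists hold no values per sample, and leaving out a replicate was not possible for the same reason. The depth behind each region is unknown.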
